A study of Mus musculus with 6 samples.

Results

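A set of 9 genes was described in mouse liver: the carbohydrate response element binding protein ChREBP (gene Mlxipl), 7 genes known to respond to glucose or fructose (Pklr, Txnip, Arrdc4, Khk, Tkfc, Fgf21 and Slc2a2), and Rgs16, a regulator of G protein signalling. They are 9 of the 55487 genes in the count table and 9 of the 14046 genes that passed the filter on low counts. The set was chosen by its place in carbohydrate metabolism, with the fold changes between the GalNAc-siRnf10 and GalNAc-siNC groups already known, and Rgs16 is among the genes that differed most in that contrast. The differences of these 9 genes between the treatments are therefore a description, without a test.

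The livers came from wild-type male C57BL/6J mice that were kept on a normal chow diet with free access to food and were 17 weeks old when tissue was taken. Mice received subcutaneous GalNAc-siNC, a control siRNA (these mice are called controls below), or GalNAc-siRnf10, an siRNA against Rnf10, and each group held 3 mice with 1 RNA-seq library per mouse. Both siRNAs carried N-acetylgalactosamine, which is taken up through the asialoglycoprotein receptor of hepatocytes, so the agent was directed at hepatocytes whereas the RNA came from whole liver tissue. All 6 libraries had the same batch label. The dose and injection days of this experiment, the time of day and whether food was withdrawn before collection were not given in the sources used here. The labels number the mice 1 to 3 in each group, and these are different animals.

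ChREBP is a transcription factor that pairs with Mlx, becomes active when glucose or fructose metabolites accumulate in hepatocytes, and binds carbohydrate response elements near genes of glycolysis, fructose breakdown and lipid synthesis. Pklr encodes liver pyruvate kinase, Khk ketohexokinase and Tkfc triokinase, Slc2a2 the glucose transporter GLUT2, Txnip and Arrdc4 a pair of alpha-arrestins that limit glucose uptake, and Fgf21 a hormone secreted by the liver in fasting and after sugar intake. Rgs16 speeds up the hydrolysis of GTP on G protein alpha subunits and thereby shortens signals from coupled receptors, and in liver its mRNA is known to follow feeding, fasting and the time of day.

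The regions just before the annotated starts were searched for the elements that ChREBP is known to bind, because these elements are what the 8 carbohydrate-responsive genes are thought to share. RefSeq promoter windows (GRCm38.p6, 250 bases before to 50 bases after each start) were found for 9 of the 9 genes, in 11 windows. The full element was searched on both strands as CANGNG and CNCNTG with 5 bases between them. It was present in 183 of 32851 windows of all genes, or 0.557%. Among the 9 genes it was found in the window of the liver start of Pklr, 170 bases before the start, at chr3:89136453-89136469. A tandem form, with CACGAG followed by CACGAG 5 bases later on either strand, is known from the Txnip promoter. It was found in 1 window (0.00304%), that of Txnip, 85 bases before the start at chr3:96557872-96557888. The palindromic E-box CACGTG, which many other factors also bind, was in 2349 windows (7.15%). It occurred in those of Khk, Mlxipl, Fgf21 and Arrdc4. For Mlxipl it was in the window chr5:135089640-135089939 and not in the window of another start, chr5:135106641-135106940. A match is a description of the letters and not a measured binding site. The stretches that hold the matches are shown 5′ to 3′ on the strand of the gene, with the matched letters in capitals.
Pklr, plus strand, chr3:89136428-89136494: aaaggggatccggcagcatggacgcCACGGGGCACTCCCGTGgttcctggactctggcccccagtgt
Txnip, plus strand, chr3:96557847-96557913: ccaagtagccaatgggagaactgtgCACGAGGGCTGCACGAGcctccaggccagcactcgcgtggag
Khk, plus strand, chr5:30921463-30921518: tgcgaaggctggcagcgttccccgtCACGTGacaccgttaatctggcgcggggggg
Mlxipl, plus strand, chr5:135089767-135089822: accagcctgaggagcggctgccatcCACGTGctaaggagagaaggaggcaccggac
Fgf21, minus strand, chr7:45615510-45615565: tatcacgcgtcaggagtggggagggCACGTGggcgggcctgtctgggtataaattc
Arrdc4, minus strand, chr7:68749401-68749456: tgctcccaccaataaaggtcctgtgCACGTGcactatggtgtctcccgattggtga

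No match to these 3 motifs was found in the windows of Rgs16, Slc2a2 and Tkfc, which says only that these letters are not in those windows. The 250 bases before the start of Rgs16, the gene with the largest difference, are shown for comparison with the stretches above.
Rgs16, plus strand, chr1:153740103-153740352: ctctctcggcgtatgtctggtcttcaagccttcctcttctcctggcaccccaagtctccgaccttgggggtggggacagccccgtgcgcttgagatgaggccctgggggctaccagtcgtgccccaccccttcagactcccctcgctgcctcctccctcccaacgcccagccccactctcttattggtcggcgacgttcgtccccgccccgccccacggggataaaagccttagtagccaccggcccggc

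Between 26854377 and 33058645 reads were counted per library. Rnf10, the siRNA target, had normalized counts of 3869, 4536 and 4040 with GalNAc-siNC and of 1738, 1820 and 1793 with GalNAc-siRnf10, so that the groups did not overlap. Over all genes, GalNAc-siNC-treated mouse 1 stood apart from the others of its group. Its counts differed from those of mice 2 and 3 by a chi-square per gene of 30.6 and 29.8, against 10.4 between mice 2 and 3 and between 4.71 and 5.4 among the GalNAc-siRnf10-treated mice. A gene was called where the quasi-likelihood test of edgeR, adjusted by Benjamini-Hochberg over all tested genes, gave a p under 0.05. By this rule 14.0% of the tested genes were called, 6.71% higher and 7.28% lower with GalNAc-siRnf10, and in 32.8% the 3 values of a group all lay on the same side of those of the other. Of the 9 genes, 4 were called (2 higher and 2 lower) and 5 did not overlap. Because the same contrast was known when the set was chosen, these counts are not read against the background shares.

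Before the differences, the levels of the 9 genes were ordered on a per-length scale (TPM, the count divided by the deposited gene length and scaled to a fixed total per library) in the GalNAc-siNC-treated mice. Khk was the most abundant, with a mean of 363.8 TPM (SD 54.1, n = 3 mice). Tkfc followed at 187.2 TPM (SD 7.87). Pklr at 139.7 TPM (SD 9.42) and Slc2a2 at 139.0 TPM (SD 15.5) had overlapping ranges. Mlxipl, the transcription factor itself, was at 108.8 TPM (SD 9.18), within the same order of magnitude as these enzymes and the transporter. Txnip was lower, at 30.86 TPM (SD 1.25). Arrdc4 at 6.423 TPM (SD 0.993) and Rgs16 at 4.834 TPM (SD 1.19) overlapped, and Fgf21 was the lowest at 1.149 TPM (SD 0.257). The ranges of all other neighbours in this order did not overlap. In the GalNAc-siRnf10-treated mice Rgs16 stood at 37.73 TPM (SD 0.44), above Txnip at 19.34 TPM (SD 0.172) and Arrdc4 at 6.495 TPM (SD 0.67). Slc2a2 stood above Pklr in that group, at 152.4 TPM (SD 4.57) against 114.2 TPM (SD 2.97). TPM values sum to the same total in every library, so a rise of abundant genes lowers the values of others. The mean of the albumin gene Alb was 41625 TPM in the controls and 60097 TPM after GalNAc-siRnf10. The differences of the 9 genes between treatments are therefore given below on the scale of normalized counts. Summed levels of gene families and marker lists stay in TPM and carry this shift, whereas shares within a family do not.

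**Figure D1:**
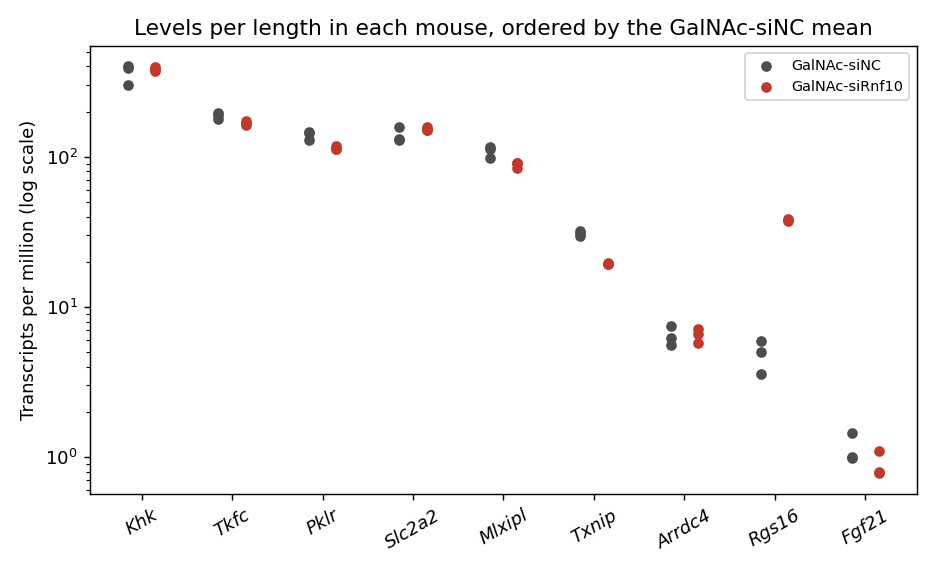
Level of each of the 9 genes in each mouse in TPM on a log axis, ordered by the mean of the GalNAc-siNC-treated mice, with 3 points per gene and treatment. Rgs16 lay between 3.559 and 5.906 TPM in the controls and between 37.35 and 38.21 TPM after GalNAc-siRnf10, and Fgf21 was the lowest gene in both groups.

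Rgs16 (ENSMUSG00000026475) lies on chromosome 1 (GRCm38, plus strand, 153740349 to 153745468). Its raw counts were 109, 137 and 173 in GalNAc-siNC-treated mice 1 to 3 and 1000, 1188 and 1061 in GalNAc-siRnf10-treated mice 1 to 3. The normalized counts were 94.88, 141.3 and 170.9 in the former and 1130, 1136 and 1130 in the latter. All 3 GalNAc-siRnf10-treated mice were far above all 3 controls, and the lowest of them was 6.61 times the highest control. The means were 135.7 (SD 38.3, n = 3 mice) and 1132 (SD 3.34, n = 3), and the fitted log2 fold change was 3.07 (SE 0.153), or 8.39-fold. Of the 14046 tested genes, 7 had a larger log2 fold change, of which 3 averaged 50 or more normalized counts. The spread was unequal between the groups. The coefficient of variation was 28.2% among the controls, where counting error alone would give 8.46%, and 0.295% among the GalNAc-siRnf10-treated mice, where counting error alone would give 3.04%. The latter 3 values thus lay closer together than the counting error of a single library. Mouse 1, which stood apart in its group, had the lowest Rgs16 count, and without it the log2 fold change was 2.85, or 7.23-fold. A predicted gene, Gm28513, overlaps 236 exonic bases of Rgs16 on the opposite strand and had at most 3 counts in any mouse.

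**Figure D2:**
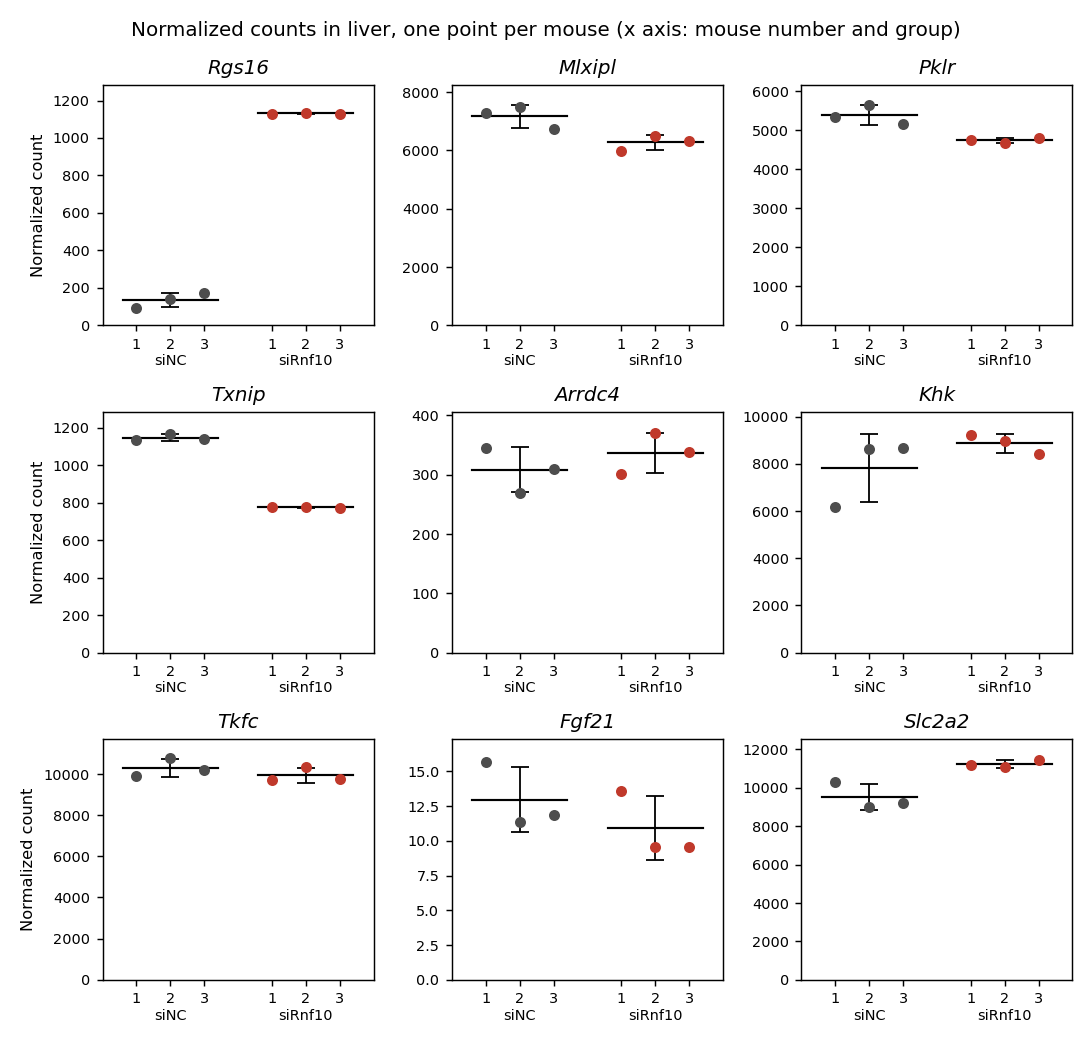
Normalized counts of the 9 genes, with 1 panel per gene, 1 point per mouse, a line at the group mean and a bar of 1 SD (n = 3 mice per group), on axes that start at 0. Rgs16 was near 1130 in every GalNAc-siRnf10-treated mouse, Txnip was near 775 in each of them, and the point of mouse 1 lay apart from the other controls for Khk.

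Among the genes of its own family, Rgs16 accounted for 18.4%, 24.5% and 29.3% of the summed TPM of 21 RGS genes in the controls. With GalNAc-siRnf10 it accounted for 76.2%, 73.6% and 73.2%. The summed level of the family was between 19.34 and 20.59 TPM in the former and between 49.03 and 52.19 TPM in the latter, and the 20 other RGS genes together went from a range of 14.23 to 15.79 TPM to one of 11.68 to 13.98 TPM. Of the 20, 12 did not pass the filter on low counts, with at most 10 counts in any mouse. Of the 8 tested ones 2 were lower and 0 were called higher by edgeR, with 0 higher at an unadjusted p under 0.05 and 0 by DESeq2. Their median log2 fold change, fitted on normalized counts, was -0.01. Rgs3, which like Rgs16 acts on Gi and Gq subunits, had normalized counts of 178.5, 207.3 and 210.5 with GalNAc-siNC and of 101.7, 131.9 and 149.1 with GalNAc-siRnf10. It fell by 0.63 on the log2 scale (SE 0.16, edgeR adjusted p = 0.0127). Rgs12 fell by 0.60 (SE 0.162, edgeR adjusted p = 0.0186). The call of Rgs3 was lost without GalNAc-siRnf10-treated mouse 1, and that of Rgs12 without control mouse 2 or 3 or GalNAc-siRnf10-treated mouse 2 or 3. Rgs5 had a log2 fold change of 0.03 and Rgs2 had one of -0.27, neither past the threshold.

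**Figure D3:**
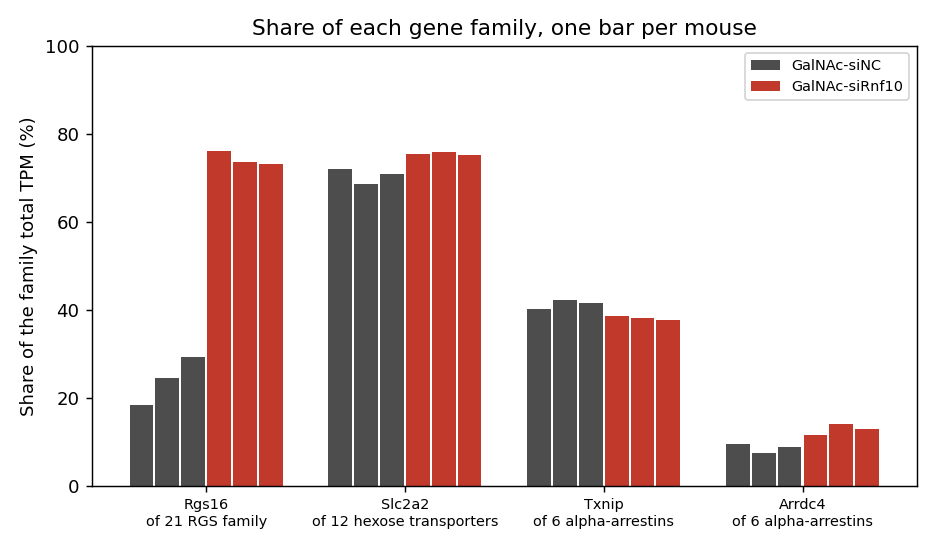
Share of the summed TPM of a gene family taken by Rgs16 (21 RGS genes), Slc2a2 (12 hexose transporters), Txnip and Arrdc4 (6 alpha-arrestins), with 1 bar per mouse. The share of Rgs16 was at most 29.3% in the GalNAc-siNC-treated mice and at least 73.2% after GalNAc-siRnf10. That of Slc2a2 was 68.7% to 72.1% in the former and 75.3% to 75.9% in the latter.

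The substrates of RGS proteins are the alpha subunits of heterotrimeric G proteins. Of 9 such genes, 6 were tested, 1 was higher and 2 were lower. Gnai2, which encodes an inhibitory subunit, fell by 0.37 on the log2 scale (SE 0.0695, edgeR adjusted p = 0.00158). Gnai3, of the same class, rose by 0.22 (SE 0.0668, edgeR adjusted p = 0.039), a call that was lost without any 1 mouse other than control mouse 1. Gna14, of the Gq class, fell by 0.78 (SE 0.133, edgeR adjusted p = 0.000635), from 363.9, 367.2 and 375.5 to 262.2, 201.7 and 182.1 normalized counts. Gna11, Gnaq and Gnai1 had log2 fold changes of -0.23, 0.13 and 0.09 and were not called. The median log2 fold change of the 6 genes was -0.07, beside 0.0022 over all tested genes.

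The genes whose pattern over the 6 mice was most like that of Rgs16 were found by the root mean square difference between log2 CPM (counts scaled to library size), each centred on its own GalNAc-siNC mean, among the 10944 genes whose mean normalized count reached 50. The nearest was Gm43305, a predicted gene on chromosome 14, at a difference of 0.26 log2 units. Its normalized counts were 215, 210.4 and 210.5 with GalNAc-siNC and 1671, 1787 and 1748 with GalNAc-siRnf10. Hamp2, a paralog of the iron hormone gene Hamp with which reads could be shared, followed at 0.32. It had 20.89, 15.47 and 24.7 normalized counts in the controls and 156, 156.8 and 157.6 after GalNAc-siRnf10. A930033H14Rik (0.47), Gm15622 (0.50) and Gm42047 (0.53) came next, and of these Gm15622 shares 187 exonic bases with Bhmt, an abundant gene of the opposite strand, so its counts are uncertain. The ranking rests on the same 6 libraries as the fold change of Rgs16 and is a description of likeness only.

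Mlxipl (ENSMUSG00000005373, chromosome 5, 135089890 to 135138382, plus strand), the gene of ChREBP, had normalized counts of 7279, 7492 and 6737 in the controls and of 5999, 6495 and 6330 after GalNAc-siRnf10. The highest of the latter was below the lowest of the former. The mean was 7169 (SD 389, n = 3 mice) and 6275 (SD 253, n = 3), which was 12.5% lower, at a log2 fold change of -0.19 (SE 0.061). Mlxipl was called lower, but only narrowly. The call was lost without GalNAc-siNC-treated mouse 2 or without any 1 of the GalNAc-siRnf10-treated mice, with DESeq2 and in the fit corrected for GC content and gene length, where the log2 fold change was -0.06. The counts are per gene, so the alpha and beta isoforms of ChREBP, which start at different first exons, were not separated.

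The partners of ChREBP belong to the Mlx and Max network of basic helix-loop-helix factors, which share E-box sites. Of 9 tested genes of this network other than Mlxipl, 0 were higher and 2 were lower by edgeR, with 1 higher at an unadjusted p under 0.05 and 0 by DESeq2. Mlx, the obligate partner, was nearly level, with 965.4, 928.2 and 927.8 normalized counts in the controls and 957.4, 940.8 and 956.3 after GalNAc-siRnf10, a log2 fold change of 0.02 (SE 0.0756). Myc, which pairs with Max and drives growth and metabolic genes, had 1112, 1342 and 1223 normalized counts with GalNAc-siNC and 410.3, 459.9 and 485.6 with GalNAc-siRnf10. The groups were far apart, and Myc fell by 1.44 on the log2 scale (SE 0.0956, edgeR adjusted p = 1.45e-08). Mnt, a Max partner that opposes Myc, fell by 0.52 (SE 0.13, edgeR adjusted p = 0.0118), and its call was lost without control mouse 3 or GalNAc-siRnf10-treated mouse 1. Mxd4 and Mga each had a log2 fold change of -0.02 and were not called.

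Pklr (ENSMUSG00000041237, chromosome 3, 89136142 to 89146784, plus strand), the classical ChREBP target in liver, had normalized counts of 5338, 5652 and 5160 in the controls. With GalNAc-siRnf10 it had 4739, 4672 and 4809. The groups did not overlap, yet the difference was small, with means of 5383 (SD 249, n = 3 mice) and 4740 (SD 68.8, n = 3), which was 11.9% lower and not called. The log2 fold change was -0.18 (SE 0.0598). Without mouse 1 of the controls it was -0.19 and was then called lower. The exons of Pklr share 711 bases with Hcn3 on the opposite strand. Whether the counting used strand was not given in the sources used here. The mean of Hcn3 was 650.6 normalized counts in the controls and 696.1 after GalNAc-siRnf10 (log2 fold change 0.10, SE 0.0982, not called). The part of the shared bases in the difference of Pklr was not tested.

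Txnip (ENSMUSG00000038393, chromosome 3, 96557957 to 96561883, plus strand), the thioredoxin-binding alpha-arrestin whose promoter carries the tandem form shown above, had normalized counts of 1136, 1169 and 1139 in the GalNAc-siNC-treated mice. It had 775.4, 778.3 and 771.0 after GalNAc-siRnf10. Both groups were well separated. The coefficient of variation was 1.56% among the controls and 0.472% after GalNAc-siRnf10, where counting error alone would give 2.89% and 3.67%. The values of each group thus lay closer together than the counting error of a single library. The means were 1148 (SD 17.9, n = 3 mice) and 774.9 (SD 3.66, n = 3), which was 32.5% lower, at a log2 fold change of -0.57 (SE 0.0752). Txnip was called lower, and its log2 fold change stayed between -0.58 and -0.56 when each mouse was left out in turn. Arrdc4 (ENSMUSG00000042659, chromosome 7, 68736995 to 68749241, minus strand), its closest relative among carbohydrate-responsive genes, had 345.6, 269.2 and 310.3 normalized counts with GalNAc-siNC and 301.8, 370.0 and 337.6 with GalNAc-siRnf10. These groups overlapped, and the log2 fold change was 0.13 (SE 0.124), not called. It was 0.22 without mouse 1 of the controls. The 2 alpha-arrestins thus had differences of opposite sign, of which only that of Txnip exceeded the spread between mice.

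In the summed TPM of 6 alpha-arrestins, the share of Txnip was 40.2%, 42.3% and 41.5% in the controls and 38.6%, 38.1% and 37.8% after GalNAc-siRnf10. The share of Arrdc4 was 9.45%, 7.53% and 8.74% in the former and 11.6%, 14.0% and 12.8% in the latter. The family total went from a range of 71.05 to 79.44 TPM to one of 49.7 to 51.61 TPM, so that Txnip was lower while its share of the family moved little. Of the other 4 genes, 3 were tested. Arrdc3, an adaptor for receptor ubiquitination, had 2337, 1995 and 2171 normalized counts in the controls and 1128, 1003 and 1125 after GalNAc-siRnf10. It fell by 1.00 on the log2 scale (SE 0.0798, edgeR adjusted p = 1.28e-07). Arrdc2 rose by 0.69 (SE 0.147, edgeR adjusted p = 0.00446), and Arrdc1 had a log2 fold change of -0.27 and was not called.

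Txnip binds and inhibits thioredoxin. Of 8 tested genes of the thioredoxin system, 3 were higher and 0 were lower by edgeR (0 lower at an unadjusted p under 0.05 and 0 by DESeq2), with a median log2 fold change of 0.19. Txn2, the mitochondrial thioredoxin, rose by 0.26 (SE 0.0696, edgeR adjusted p = 0.0186), and the peroxidases Prdx1 and Prdx3 rose by 0.21 and 0.19 (edgeR adjusted p = 0.014 and 0.0458). All 3 calls were lost, and 0 genes of the list were called, without GalNAc-siRnf10-treated mouse 1, 2 or 3, and that of Prdx3 was also lost with DESeq2. Txn1, the cytosolic thioredoxin that Txnip binds, had 2974, 3722 and 4367 normalized counts with GalNAc-siNC and 4621, 4725 and 4392 with GalNAc-siRnf10. The groups did not overlap, and the log2 fold change of 0.31 (SE 0.127) was not called by edgeR but was called higher by DESeq2. The lowest value was that of control mouse 1. Txnrd1 and Prdx2 had log2 fold changes of 0.03 and 0.19 and were not called.

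**Figure D4:**
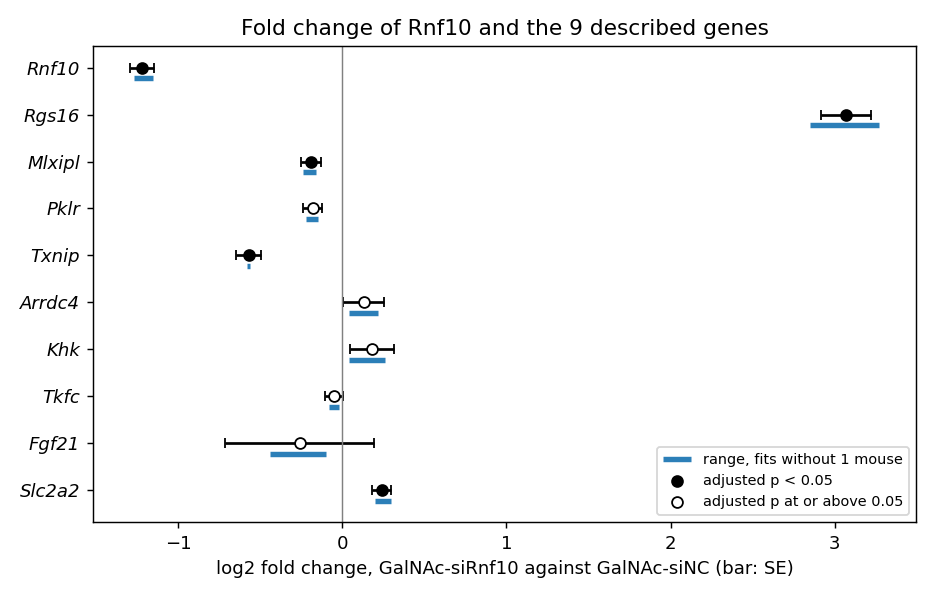
Fitted log2 fold change of Rnf10 and of the 9 genes, GalNAc-siRnf10 against GalNAc-siNC, with bars of 1 SE, filled points for genes called at an adjusted p under 0.05, and a blue line for the range over the 6 fits that each left out 1 mouse. Rgs16 stood at 3.07 with a range of 2.85 to 3.27, Txnip at -0.57 with a range too narrow to see, and the other 7 genes lay between -0.26 and 0.24.

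The enzymes of fructose breakdown were close to level. Khk (ENSMUSG00000029162, chromosome 5, 30921431 to 30931248, plus strand), which phosphorylates fructose, had normalized counts of 6176, 8622 and 8667 in the controls and of 9243, 8949 and 8438 after GalNAc-siRnf10. Only control mouse 1 was below the rest, and the groups overlapped. The log2 fold change of 0.18 (SE 0.133) was not called, and without mouse 1 it was 0.04. In the fit corrected for GC content and gene length Khk was called higher, at the same log2 fold change of 0.18. The Khk-A and Khk-C isoforms, which differ in 1 exon, were not separated. Tkfc (ENSMUSG00000034371, chromosome 19, 10587791 to 10605654, minus strand), which phosphorylates the glyceraldehyde made from fructose, had 9920, 10766 and 10215 normalized counts in the controls and 9707, 10336 and 9754 after GalNAc-siRnf10. Its groups overlapped, with a log2 fold change of -0.05 (SE 0.0565), not called. Its exons share 596 bases with Cyb561a3 and 328 bases with Ddb1 on the opposite strand, and the latter had a mean of 6209 normalized counts in the controls and 6016 after GalNAc-siRnf10 (log2 fold change -0.05, not called).

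Of 6 other tested genes of fructose and polyol metabolism, 2 were higher and 0 were lower by edgeR, with 0 lower at an unadjusted p under 0.05 and 0 by DESeq2. Sord, which makes fructose from sorbitol, rose by 0.31 (SE 0.0479, edgeR adjusted p = 0.000285). The fructose transporter gene Slc2a5 was level (log2 fold change -0.01), and Slc2a8 and the glycerate kinase gene Glyctk had values of -0.11 and 0.00, none of them called.

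Slc2a2 (ENSMUSG00000027690, chromosome 3, 28697903 to 28731359, plus strand), which encodes the main glucose transporter of hepatocytes, had normalized counts of 10293, 9013 and 9221 in the controls and of 11174, 11098 and 11471 after GalNAc-siRnf10. Every GalNAc-siRnf10-treated mouse was above every control. The mean was 9509 (SD 687, n = 3 mice) and 11248 (SD 197, n = 3), which was 18.3% higher, at a log2 fold change of 0.24 (SE 0.0599). Slc2a2 was called higher. The call was lost without control mouse 3 or any 1 of the GalNAc-siRnf10-treated mice, whereas without control mouse 1 the log2 fold change was 0.30. In the summed TPM of 12 hexose transporters Slc2a2 held 72.1%, 68.7% and 70.8% in the controls and 75.4%, 75.9% and 75.3% after GalNAc-siRnf10. Of the 11 others, 6 had too few counts to test, and 0 of the 5 tested ones were called by edgeR or DESeq2, with 1 lower at an unadjusted p under 0.05. Slc2a9, a urate and hexose transporter, had a log2 fold change of -0.11, Slc2a8 had one of -0.11 and Slc2a1 had one of -0.28.

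Fgf21 (ENSMUSG00000030827, chromosome 7, 45613886 to 45615490, minus strand) was close to the limit of detection at this depth. It had 18, 11 and 12 raw counts in the controls and 12, 10 and 9 after GalNAc-siRnf10. The normalized counts were 15.67, 11.35 and 11.86 in the former and 13.56, 9.561 and 9.585 in the latter, and the groups overlapped. The log2 fold change was -0.26 with an SE of 0.452, so a difference of the size seen for Slc2a2 or Pklr was not detectable for Fgf21. Of 9 tested genes that receive or regulate the FGF21 signal, 1 was higher and 4 were lower. Klb, the co-receptor that FGF21 needs, rose by 0.31 on the log2 scale (SE 0.0884, edgeR adjusted p = 0.0259). Fgfr1 fell by 0.72, from 477.0, 440.4 and 418.9 to 238.5, 281.1 and 289.7 normalized counts (SE 0.114, edgeR adjusted p = 0.000318). Fgfr3 fell by 0.52 (edgeR adjusted p = 0.000426). The liver receptor genes Fgfr4 and Fgfr2 fell by 0.29 and 0.28 (edgeR adjusted p = 0.0472 and 0.0463), but DESeq2 called neither. Of the 5 called genes, 2 were still called without control mouse 3 or GalNAc-siRnf10-treated mouse 2 or 3, and 3 without control mouse 2 or GalNAc-siRnf10-treated mouse 1. Fgfr1 and Fgfr3 kept their calls in each of these fits. Ppara, Creb3l3 and Atf4, which encode factors that induce Fgf21, had log2 fold changes of 0.00, -0.12 and 0.07 and were not called.

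Other genes known to be ChREBP targets in liver moved in both directions. Of 16 tested, 4 were higher and 6 were lower, with a median log2 fold change of -0.05 beside 0.0022 over all tested genes. G6pc, the glucose 6-phosphatase of glucose output, had 7064, 6242 and 6541 normalized counts in the controls and 9967, 10046 and 9941 after GalNAc-siRnf10, and it rose by 0.59 on the log2 scale (SE 0.059, edgeR adjusted p = 1.9e-06). Thrsp, a lipogenic nuclear protein, rose by 0.51 (edgeR adjusted p = 3.36e-05), and the fatty acid elongase gene Elovl6 rose by 0.61 (edgeR adjusted p = 5.29e-06). Klf10, a repressor that responds to glucose, had 1520, 1487 and 1470 normalized counts with GalNAc-siNC and 616.0, 573.7 and 571.9 with GalNAc-siRnf10. It fell by 1.35 (SE 0.0771, edgeR adjusted p = 2.39e-09). Lipid synthesis genes were among the lower ones. Acacb fell by 0.61 (edgeR adjusted p = 4.19e-05), Scd1 by 0.50 (edgeR adjusted p = 1.29e-05), Acaca by 0.37 (edgeR adjusted p = 0.00114) and Fasn by 0.26 (edgeR adjusted p = 0.00897), the last of which was not called without GalNAc-siRnf10-treated mouse 2 or 3. Gpd1, which links glycolysis to glycerol 3-phosphate, fell by 0.36 (edgeR adjusted p = 0.0013). Acly, Me1 and Tkt had log2 fold changes of 0.06, 0.07 and 0.16 and were not called. Pnpla3, with at most 13 counts, was not tested.

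**Figure D5:**
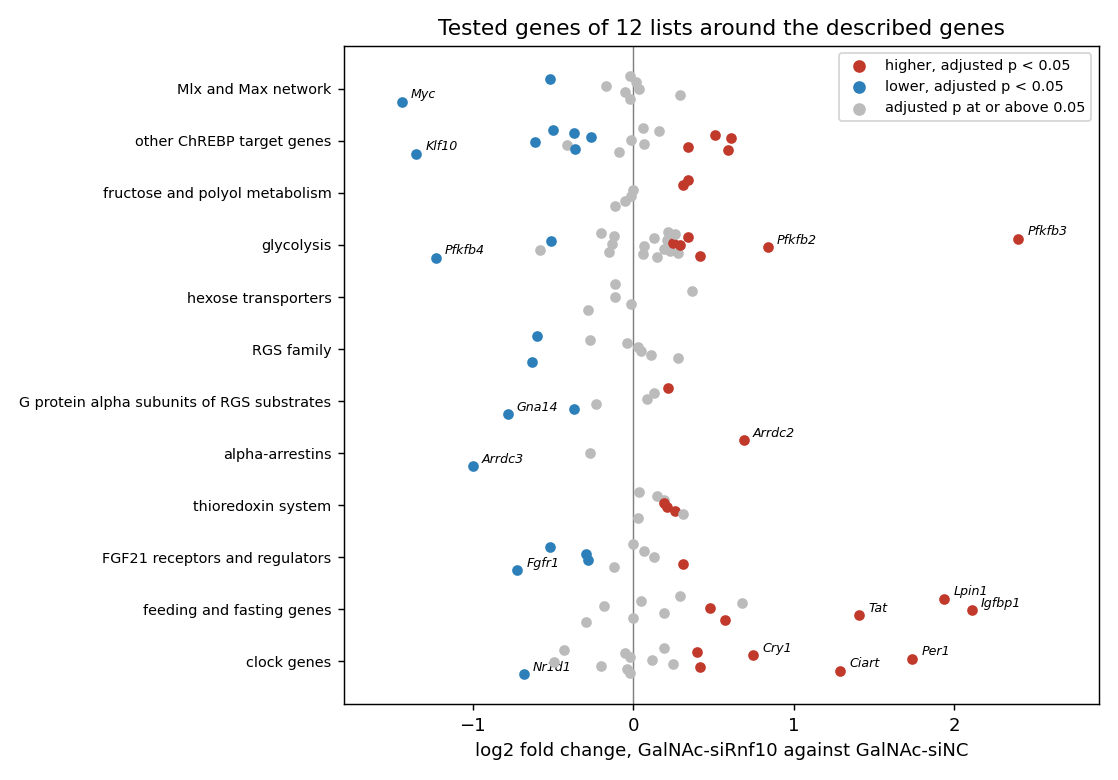
Fitted log2 fold change of every tested gene of 12 gene lists around the 9 genes, 1 point per gene, red or blue where the gene was higher or lower at an adjusted p under 0.05 and grey otherwise, with the larger called differences named. The points of other ChREBP target genes fell on both sides of 0, from -1.35 for Klf10 to 0.61 for Elovl6, whereas 0 RGS and hexose transporter genes of the lists were called higher.

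Pyruvate kinase is the last step of glycolysis, and of 23 other tested glycolysis genes 6 were higher and 2 were lower, with a median log2 fold change of 0.19. The largest difference was that of Pfkfb3, which makes the fructose 2,6-bisphosphate that activates phosphofructokinase. It had 437.9, 410.5 and 388.3 normalized counts in the controls and 2072, 2208 and 2275 after GalNAc-siRnf10, and it rose by 2.40 on the log2 scale (SE 0.0811, edgeR adjusted p = 3.44e-12). Its isoenzyme gene Pfkfb2 rose by 0.84 (edgeR adjusted p = 0.000139), whereas Pfkfb4, at 18.08 to 69.17 normalized counts, fell by 1.23 (edgeR adjusted p = 0.00783). Aldoa, Eno1 and Pgk1 rose by 0.42, 0.29 and 0.25 (edgeR adjusted p = 0.000449, 0.00445 and 0.00429). Ldha, which makes lactate from the product of Pklr, fell by 0.51, from 27252, 29944 and 29860 to 20325, 20301 and 20483 normalized counts (edgeR adjusted p = 3.7e-06). Tpi1, Gpi1 and Gapdh had log2 fold changes of 0.22, 0.13 and 0.23 and were not called. Several of these genes have processed pseudogenes with near-identical sequence, and how the counting treated reads shared with them was not given in the sources used here.

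Rgs16 and several of the carbohydrate-responsive genes are known to follow meals and the time of day, and genes of both kinds were measured in the same livers. Of 12 tested genes of feeding and fasting, 5 were higher and 0 were lower by edgeR (2 lower at an unadjusted p under 0.05 and 0 by DESeq2), with a median log2 fold change of 0.39. Igfbp1, a secreted binding protein that insulin represses, had 304.7, 281.6 and 332.0 normalized counts in the controls and 1244, 1341 and 1383 after GalNAc-siRnf10, and it rose by 2.11 (SE 0.0918, edgeR adjusted p = 6.46e-11). Lpin1 rose by 1.94 (edgeR adjusted p = 1.01e-11), the tyrosine aminotransferase gene Tat by 1.41 (edgeR adjusted p = 6.13e-12), Asns by 0.57 (edgeR adjusted p = 0.000549) and Pck1, of gluconeogenesis, by 0.48 (edgeR adjusted p = 6.89e-05). Cpt1a had a log2 fold change of 0.05 and was not called. Igfbp2 had 3837, 5952 and 5328 normalized counts in the controls and 8065, 8163 and 7915 after GalNAc-siRnf10. The groups did not overlap, and the log2 fold change of 0.68 just missed the threshold in edgeR (adjusted p = 0.0504) and was called higher by DESeq2. Of 16 tested clock genes, 5 were higher and 1 was lower, with a median of 0.05. Per1 had 331.7, 369.2 and 351.8 normalized counts with GalNAc-siNC and 1226, 1102 and 1183 with GalNAc-siRnf10, and it rose by 1.74 (SE 0.0888, edgeR adjusted p = 6.64e-10). Ciart, Cry1, Per2 and Per3 rose by 1.29, 0.75, 0.42 and 0.40, and Nr1d1 fell by 0.68 (edgeR adjusted p = 1.78e-05). Tef, Bhlhe40 and Nr1d2 had log2 fold changes of 0.12, -0.20 and 0.19 and were not called. The part of the time of collection or of food intake in the values of Rgs16 and the carbohydrate-responsive genes was not tested.

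Over the 12 lists, 46 of 116 tested genes were called (39.7%), 26 higher and 20 lower, beside 14.0% of all tested genes. The lists hold many abundant liver genes and were written with earlier results of this contrast known, so nothing is read from this share.

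The tissue label was checked with cell type markers. All 8 hepatocyte markers were tested, 5 were higher and 0 were lower by edgeR (0 lower at an unadjusted p under 0.05 and 0 by DESeq2), and their summed level lay between 65485 and 70609 TPM in the controls and between 89981 and 91400 TPM in the GalNAc-siRnf10-treated mice. Alb, the albumin gene, rose by 0.64 on the log2 scale, Ttr by 0.66, Cps1 by 0.58 and Serpina1a by 0.21, beside Tat (edgeR adjusted p = 1.4e-07, 0.0138, 6.52e-07 and 0.0117). The mean of Alb alone was 41625 TPM in the controls and 60097 TPM after GalNAc-siRnf10, so the summed level mostly followed this gene. Apoa1, Apob and Asgr1 had log2 fold changes of 0.08, -0.11 and 0.11 and were not called. In whole tissue, fewer cells of a type and less RNA per cell cannot be told apart. Of 8 Kupffer cell markers 0 were called by edgeR or DESeq2, with 2 lower at an unadjusted p under 0.05. Their summed level was 198.5 to 217.1 TPM against 186.0 to 193.7 TPM. Fitted on normalized counts, their log2 fold changes ran from -0.34 to 0.31 with a median of 0.01. Of 8 endothelial markers 2 were higher (Lyve1 and Clec4g, by 0.55 and 0.52), and of 8 stellate cell markers 3 were higher (Colec11, Dcn and Reln, by 0.37, 0.36 and 0.35), with summed levels of 42.54 to 45.78 TPM against 46.01 to 49.0 TPM and of 53.03 to 59.24 TPM against 57.46 to 61.85 TPM. Of 5 cholangiocyte markers Spp1 was lower, by a log2 fold change of -0.90. The summed level of the 5 was 96.28 to 103.3 TPM against 50.02 to 50.27 TPM. Most of it was Spp1, with a mean of 93.54 TPM in the controls and 46.46 TPM after GalNAc-siRnf10. Krt19, Krt7, Epcam and Sox9 had log2 fold changes of -0.20, -0.26, -0.15 and -0.54 and were not called. The neutrophil marker S100a9 was lower at -1.43 on the log2 scale, with at most 3.105 TPM for its list of 5 genes in the GalNAc-siRnf10-treated mice against 4.829 to 9.672 TPM in the controls, and of 2 tested lymphocyte markers neither was called, with summed levels of 1.627 to 1.985 TPM against 1.15 to 2.471 TPM. Kidney, pancreas and adipose tissue also express some of the 9 genes. Of the 4 kidney markers Umod, Slc12a1 and Slc34a1 had at most 2 counts in any mouse and Lrp2 was not called (log2 fold change -0.27). At most 2 counts were also found for 5 of the 6 pancreas markers. Cela1 of the latter list, the only one tested, rose by 0.58. Of the 5 adipose markers Adipoq, Lep and Plin1 had 0 counts in every mouse, and Cidec and Fabp4 were not called (log2 fold changes 0.29 and 0.41). Of the called markers, Lyve1, Colec11, Reln, S100a9, Serpina1a and Ttr each lost their call without at least 1 of the mice. The part of cell composition in the values of the 9 genes was not tested.

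Genes that lie beside the 9 genes on the chromosome were compared in the same fit, since position was not used to choose the set. Of 52 tested genes that start within 100 kb of the start of 1 of the 9 genes, 1 was higher and 5 were lower, or 11.5%, beside 14.0% of all tested genes. Within 500 kb of the 9 genes, 169 were tested, 9 were higher and 11 were lower, or 11.8%. Of these, 7 genes near Rgs16 were tested and 0 were called by edgeR or DESeq2, with 1 lower at an unadjusted p under 0.05. Near Arrdc4, which had 0 tested neighbours within 100 kb, 3 genes were tested within 500 kb and all 3 were higher. Next to Txnip, Hfe2, the hemojuvelin gene of iron sensing, starts 32.8 kb on the 5′ side and fell by 0.62 on the log2 scale (SE 0.0722, edgeR adjusted p = 1.21e-05), beside -0.57 for Txnip. Fdps, an enzyme gene of isoprenoid synthesis near Pklr, fell by 0.68 (edgeR adjusted p = 0.00376). Agbl5 and Tmem214 near Khk fell by 0.72 and 0.33 (edgeR adjusted p = 0.0187 and 0.00328), and Vwce near Tkfc fell by 0.37 (edgeR adjusted p = 0.0093). The call of Agbl5 was lost without control mouse 2 or GalNAc-siRnf10-treated mouse 2 or 3, and that of Vwce without GalNAc-siRnf10-treated mouse 1. The transcript 0610005C13Rik near Fgf21 rose by 0.31 (edgeR adjusted p = 0.00328). Of the 9 tested neighbours of Mlxipl and the 2 of Slc2a2 within 100 kb, 0 were called by edgeR or DESeq2, with 1 near Mlxipl higher at an unadjusted p under 0.05.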

How the data were processed

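The authors prepared stranded mRNA libraries, mapped paired reads to GRCm38 (mm10) with HISAT2 and deposited raw counts per Ensembl gene for the 6 livers, without normalization, together with a length in bases for each gene model. Per the submitters' processing notes they used HISAT2 and DESeq2. The counting tool, annotation release and strand setting were not given in the sources used here. Groups were taken from the sample labels. Nothing in the labels says more on the origin of the mice, so p-values measure the spread between these animals.

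From the deposited counts, genes were filtered by filterByExpr, normalized by TMM and tested with edgeR 4.0.16 (R 4.3.3), using the quasi-likelihood test with treatment as the only term and Benjamini-Hochberg adjustment over 14046 genes, with a threshold of 0.05. Standard errors were the log2 fold change divided by the square root of its F statistic. Normalized counts are TMM-scaled counts on the mean library size. The common dispersion was 0.00861, a biological coefficient of variation of 9.28%. A share of 3 counts, the floor of detection, was 9.07e-06% to 1.12e-05% of a library and covers counting error only. TPM used the deposited lengths. The fit was tested on simulated counts with known changes. Gene symbols were matched by Ensembl identifier, and 346 identifiers had no symbol. Gene starts and exons were those deposited with the counts, and GC content came from GENCODE M21 (GRCm38). Where a symbol had several identifiers, the lowest was used. Promoter sequences came from RefSeq.

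The members and the gene lists were chosen with earlier results of these data known. Genes were named by rule: the 9 genes, Rnf10, the called genes of each list and up to 3 uncalled ones with the highest mean normalized count, called genes within 100 kb, and the 5 genes most like Rgs16. Alternatives were RLE and upper quartile normalization, DESeq2 1.42.0, voom with quality weights (limma 3.58.1), no filter, a minimum of 10 counts in each library, a block on mouse number, GC and length offsets, and leaving out each mouse. Figures were drawn with matplotlib 3.10.9. Results for some genes of the lists and neighbourhoods are not reported here, although the counts of genes include them.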

Additional observations from a re-analysis of the deposited data

How the results depend on the processing

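Rgs16, Txnip and Rnf10 kept their direction and call in all 15 alternative fits. Of 64 called list and neighbour genes, 45 kept their call in every fit and none changed sign. Mlxipl was not called with DESeq2 (-0.19), with the replicate block (-0.19), or with the GC and length correction without (-0.0638) and with the replicate block (-0.0622). Pklr was called with upper quartile normalization (-0.19), at least 10 counts in every mouse (-0.19) and voom (-0.17). Khk was called with the GC and length correction without (0.18) and with the replicate block (0.18), and there Tkfc changed sign to 0.0502 and 0.04998 without being called. Leaving out 1 mouse gave log2 fold changes of -0.24 to -0.16 for Mlxipl, -0.22 to -0.15 for Pklr and 0.20 to 0.30 for Slc2a2. Pklr was called without control mouse 1 or 3. Mlxipl lost its call without control mouse 2 and Slc2a2 without control mouse 3, and both lost it without any GalNAc-siRnf10-treated mouse, where 2 of the 9 genes were called. With each mouse left out, 2 to 5 of the 9 were called. The former fits have fewer animals. The 1965 called genes became 1053 to 2864 (943 higher, 520 to 1395; 1022 lower, 533 to 1469), with 1053, 1128 and 1128 without GalNAc-siRnf10-treated mouse 1, 2 and 3. A log2 fold change of at least 1 in size left 227. The replicate block gave 1816. Same-numbered mice did not deviate together (correlations -0.000993, 0.0272 and -0.0337), which cannot decide whether they were handled in pairs. Neighbours within 500 kb were called in 11.8%. By CPM, without the length correction, Khk took place 3 in place of 1 and Rgs16 place 8 as before. Depth limited Fgf21, whose value was not tested at 10 counts in every mouse.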
